A study of Mus musculus with 19 samples.

Results

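The genes of mitochondrial oxidative phosphorylation were examined in liver lacking Raly, a gene for an RNA-binding protein of the hnRNP family. Members were taken by gene symbol, under a rule set with earlier results of these data known. They were the rows whose symbol starts with Ndufa, Ndufb, Ndufc, Ndufs or Ndufv and a digit, is Sdha, Sdhb, Sdhc or Sdhd, or starts with Uqcr, Cyc1, Atp5 or one of the Cox stems for cytochrome c oxidase subunits. The rule found 85 of 24054 rows, of which 37 belong by name to complex I, 4 to complex II, 9 to complex III, 18 to complex IV and 17 to complex V. RNA-seq libraries from liver of C57BL/6 mice were compared, 3 L-RalyKO and 3 control. All mice carried Raly flox/flox alleles, ate chow, and were sampled 4 weeks after an adeno-associated virus. L-RalyKO mice received AAV8.TBG.Cre and controls AAV8.TBG.GFP; the labels call the controls wild type. The TBG promoter acts in hepatocytes, so other liver cells keep an intact Raly, and the methods name male mice unless otherwise specified. The labels number the libraries as replicates and do not state that each came from a separate animal, so p values measure the spread between these libraries. The question put to the data was whether loss of Raly changed the transcripts of each respiratory complex.

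Oxidative phosphorylation passes electrons from NADH and succinate through complexes I to IV to oxygen, and the proton gradient that complexes I, III and IV build drives ATP synthesis by complex V. Subunits come from nuclear and mitochondrial genes, and several complex IV subunits have separate forms for heart and skeletal muscle and for other tissues such as liver. Hepatocytes are rich in mitochondria and use them for fat oxidation, gluconeogenesis and urea synthesis.

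Libraries held between 28302983 and 38052705 reads, and the deposited values are reads divided by a scaled library size, on which 3 reads are worth between 0.0789 and 0.105. Raly itself read 6.34, 6.61 and 7.39 in the L-RalyKO libraries and 50.1, 48.6 and 46.8 in controls, a log2 fold change of -2.67 ± 0.07 (SE) with an adjusted p of 6.92e-07 by limma. Summed hepatocyte markers (Alb, Apoa1, Ttr, Serpina1a, Cyp2e1 and Cps1) were 100916 to 102059 in L-RalyKO liver and 90713 to 99479 in controls. Alb made up most of each sum and overlapped between groups, as did Ttr, Serpina1a and Cyp2e1. Apoa1 and Cps1 lay above every control in each L-RalyKO library. None of these markers had an adjusted p under 0.05 by limma. Muscle markers summed to between 0.203 and 0.553 and adipocyte markers to at most 0.387. In bulk liver, fewer cells of a type and less RNA per cell cannot be told apart.

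None of the 78 members tested passed the test for a change between L-RalyKO and control liver. The count of members with an adjusted p under 0.05 was 0 of 78 by limma, beside 6.55% of all 11580 genes tested (389 higher and 369 lower). It was also 0 with edgeR, DESeq2 and limma voom on recovered reads. At an unadjusted p under 0.05 there were 3 of 78 members, or 3.85%, beside 22.7% of all genes; edgeR gave 3 and DESeq2 gave 2. That count was 0 without control 2, and 1 without L-RalyKO 1, without L-RalyKO 3 or without an intensity trend. These 3 were Ndufa4l2 and Ndufa8, with lower estimates, and Atp5sl, with a higher one. Ndufa4l2 reached the minimum mean value only through the controls, and with a minimum mean value of 5 the count was 2. The other 7 of the 85 members, all of complex IV, had a mean value under 1 and were not tested.

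The intervals were also narrow. The median log2 fold change of the members was -0.01, beside 0.00 over all genes, and single members ran from -0.35 to 0.18. For 71 of 78 members the 95% interval of the fold change stayed within 1.2-fold in either direction, which held for 42.5% of all genes. It stayed within 1.5-fold for 77 of 78, beside 89.4% of all genes. Members were more abundant, with a median value of 95.4 beside 17.3 over all genes, and their median SE was 0.0555 beside 0.0791. Of the 78 members, 71 lay less than 0.1 from 0 on the log2 scale, beside 51.8% of all genes. The summed value of the members was 10432.5, 11030.1 and 10244.5 in the L-RalyKO libraries and 10782.7, 10640 and 10337.9 in controls, a difference of the means of -0.169%. The groups overlapped, and the members took 1.01% to 1.11% of each library.

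**Figure D1:**
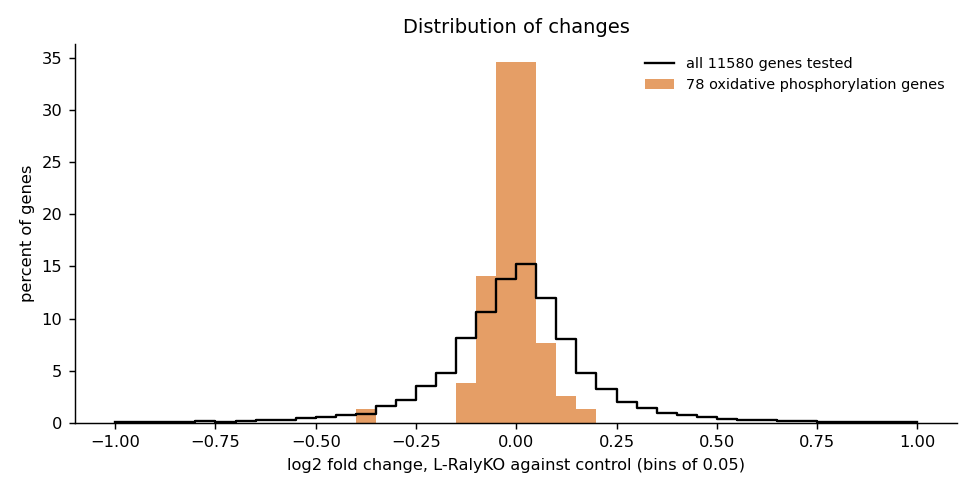
Percent of genes (vertical axis) by log2 fold change of L-RalyKO against control in bins of 0.05 (horizontal axis), as bars for the 78 tested oxidative phosphorylation genes and as a line for all 11580 genes; 89 of all genes and 0 of the members lie beyond the axis. The bars crowd around 0, with 71 of 78 members less than 0.1 away.

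**Figure D2:**
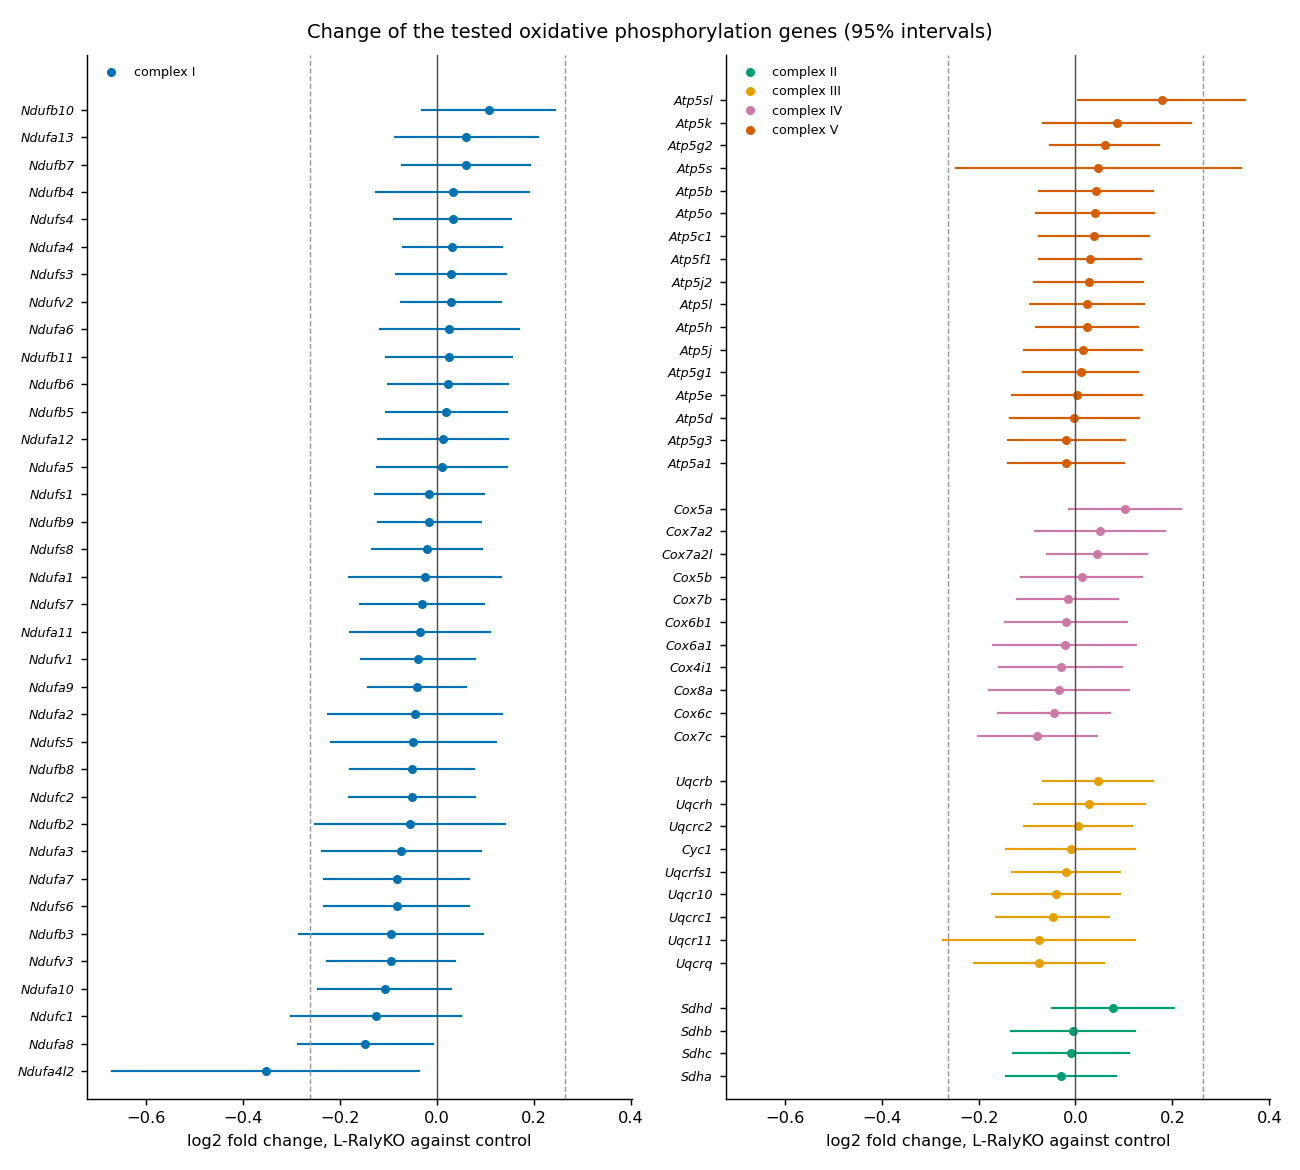
Log2 fold change (points) and 95% interval (lines) of the tested members by complex (1 not shown), L-RalyKO against control, with dashed lines at a fold of 1.2 in either direction. Points lie on both sides of 0, and the widest interval belongs to Ndufa4l2, the member at -0.35.

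Complex I, the NADH dehydrogenase that feeds electrons into the chain, was represented by 37 tested genes, and none passed the adjusted threshold. Its estimates were above 0 for 14 genes and below 0 for 23, beside 5925 above and 5655 below over all genes. Members shared shifts from library to library, so these signs are not independent of each other. The median of complex I was -0.03, and over the alternatives it ran from -0.064 to -0.004. The 7 nuclear core subunits of complex I, which hold the flavin and the iron-sulfur clusters, had estimates between -0.04 and 0.03. Ndufv1, the flavin-binding subunit that takes electrons from NADH, read 153, 161 and 145 in the L-RalyKO libraries and 162, 155 and 155 in controls. Ndufs1, the largest core subunit, read 133, 144 and 135 against 138, 136 and 142. The groups overlapped in both genes. Among other core subunits the estimates were 0.03 for Ndufs3, -0.03 for Ndufs7, -0.02 for Ndufs8 and 0.03 for Ndufv2.

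The 30 other genes of the complex I set, mostly accessory subunits, ranged from -0.35 to 0.11. The highest estimate was that of Ndufb10, an accessory subunit of the membrane arm, at 75.0, 73.7 and 71.8 in L-RalyKO libraries and 71.9, 70.2 and 62.8 in controls. Its log2 fold change was 0.11 ± 0.06 (SE) with an adjusted p of 0.340 by limma. Control 1 lay just above the lowest L-RalyKO value, and control 3 was the lowest of all. Ndufa8, an accessory subunit at chr2:35891846-35904926 (mm9, minus strand), read 47.4, 50.8 and 47.7 against 57.8, 53.7 and 50.6. The highest L-RalyKO value lay just above the lowest control value. The log2 fold change was -0.15 ± 0.06 (SE), the fold interval ran from 0.819 to 0.994, and the adjusted p was 0.197 by limma.

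Ndufa4l2 had the lowest estimate of the set. It is a paralog of Ndufa4 known as a hypoxia-induced gene, and both are today counted with complex IV rather than complex I. Its values were 1.02, 0.928 and 0.816 in L-RalyKO libraries and 1.13, 1.37 and 1.92 in controls, from 31 to 71 reads per library. Every L-RalyKO library was below every control. Its mean was 0.921 in L-RalyKO and 1.47 in control liver, so it reached the minimum mean value of 1 only through the controls. The log2 fold change was -0.35 ± 0.14 (SE) with an adjusted p of 0.175 by limma, and the two-sided exact permutation p was 0.1, the smallest that 3 against 3 libraries can give. The pseudocount of 1 is about as large as the values here, and on recovered reads the estimate was -0.69 with edgeR and with DESeq2, with adjusted p values over the alternatives of 0.130 to 0.378. Without control 3, its highest library, the estimate was -0.23. The gene, at chr10:126951995-126954208 (mm9, plus strand), overlaps Shmt2 in the annotation, and reads of overlapping genes cannot be told apart where the counting is not stated to use strand. Ndufa4 itself read 190, 197 and 187 against 183, 190 and 189, with an estimate of 0.03.

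Complex II, succinate dehydrogenase, is encoded wholly in the nucleus and also serves the citric acid cycle. All 4 of its genes were tested, none passed the threshold, and the estimates ran from -0.03 to 0.08. Sdha, the flavoprotein that oxidizes succinate (chr13:74459702-74487728, mm9, minus strand), read 605, 631 and 597 in L-RalyKO libraries and 637, 604 and 630 in controls. Sdhb, the iron-sulfur subunit, read 174, 191 and 167 against 179, 177 and 176. The L-RalyKO libraries were spread over a wider range than the controls in Sdhb, and enclosed all of them. Of the membrane anchors, Sdhc read 162, 171 and 154 against 165, 165 and 158, and Sdhd read 183, 200 and 181 against 171, 184 and 179. Sdhd had the highest estimate of the complex, 0.08 ± 0.06 (SE), with an adjusted p of 0.456 by limma.

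Complex III, which passes electrons from ubiquinol to cytochrome c, had 9 genes, with 0 past the threshold and estimates from -0.08 to 0.05. Uqcrb, a subunit at the quinone site, was highest at 87.9, 94.8 and 90.5 in L-RalyKO libraries against 90.2, 85.2 and 88.8. Uqcrq was lowest at 174, 180 and 165 against 194, 181 and 172, a log2 fold change of -0.08 ± 0.06 (SE) and an adjusted p of 0.491 by limma. Groups overlapped in both. The electron-carrying subunits had estimates of -0.01 for cytochrome c1 (Cyc1) and -0.02 for the Rieske protein (Uqcrfs1).

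Complex IV, cytochrome c oxidase, hands electrons to oxygen. Of its 18 genes, 11 were tested, none passed the threshold, and estimates ran from -0.08 to 0.10. Cox5a, a matrix-facing subunit at chr9:57369039-57380231 (mm9, plus strand), read 131, 136 and 136 in L-RalyKO libraries and 128, 129 and 118 in controls. It was the member whose L-RalyKO values all lay above the controls, and Ndufa4l2 the member whose values all lay below. That makes 1 of 78 in each direction, beside 14.4% of all genes with L-RalyKO above and 13.7% with L-RalyKO below. Ndufa4l2 reached the minimum mean value only through the controls, so no conclusion is drawn from its separation. The log2 fold change of Cox5a was 0.10 ± 0.05 (SE), the adjusted p 0.273 by limma and the two-sided exact permutation p 0.1. Cox7c was the lowest at 132, 143 and 132 against 150, 143 and 137, an estimate of -0.08.

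The liver forms of complex IV subunits carried nearly all of the reads. Cox4i1, the regulatory subunit form of most tissues, had 54547 reads over the 6 libraries, and Cox4i2, a form of lung and hypoxic cells, had 5. The heart and muscle forms were as sparse. Cox6a2 had 1 read beside 31469 of Cox6a1, and Cox8b had 1 read beside 29522 of Cox8a. The testis forms Cox6b2 and Cox7b2 had 10 and 0 reads, and Cox8c had 0, a count that allows up to 3 reads. Cox7a1, the heart and muscle form of subunit VIIa, was the one such gene with a measurable level, at 0.436, 0.406 and 0.474 in L-RalyKO libraries and 0.477, 0.281 and 0.378 in controls, from 8 to 18 reads. In reads summed over the 6 libraries and taken per kilobase of transcript, Cox7a2 was 95.3-fold Cox7a1. Cox7a2 read 79.2, 88.6 and 81.0 against 84.1, 77.7 and 78.3, and Cox7a2l, a supercomplex factor related to it, read 89.3, 93.8 and 89.7 against 87.7, 89.5 and 87.2. Groups overlapped in each of the abundant forms and in Cox7a1. The other sparse forms had too few reads for a comparison, and the 7 sparse genes did not enter the main test.

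The upstream sequences of the liver and muscle forms are shown for 2 sets, because Cox7a1 is the muscle form with the most reads and Cox8b, with 1 read, is among the sparsest. Each is the 250 bases before the RefSeq start on GRCm38.p6, which is another build than that of the counts, written 5′ to 3′ on the gene's strand, with capitals for a match to 1 of the 5 motifs searched (spelled out with the promoter results).
Cox7a2, chr9:79759854-79760103, minus strand: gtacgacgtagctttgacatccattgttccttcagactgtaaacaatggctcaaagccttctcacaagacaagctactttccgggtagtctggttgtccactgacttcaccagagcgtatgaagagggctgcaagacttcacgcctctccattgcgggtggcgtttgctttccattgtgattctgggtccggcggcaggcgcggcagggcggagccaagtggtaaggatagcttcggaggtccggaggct
Cox7a1, chr7:30183921-30184170, plus strand: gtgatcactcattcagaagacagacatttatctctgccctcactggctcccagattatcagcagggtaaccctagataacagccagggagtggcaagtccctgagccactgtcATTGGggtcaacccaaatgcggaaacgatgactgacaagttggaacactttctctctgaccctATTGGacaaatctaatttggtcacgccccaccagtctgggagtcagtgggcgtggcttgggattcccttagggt
Cox8a, chr19:7217617-7217866, minus strand: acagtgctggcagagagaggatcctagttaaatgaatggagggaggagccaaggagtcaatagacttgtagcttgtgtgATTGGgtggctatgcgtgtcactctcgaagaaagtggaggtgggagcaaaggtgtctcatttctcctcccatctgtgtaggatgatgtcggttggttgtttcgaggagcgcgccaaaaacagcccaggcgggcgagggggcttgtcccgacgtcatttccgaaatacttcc
Cox8b, chr7:140900447-140900696, minus strand: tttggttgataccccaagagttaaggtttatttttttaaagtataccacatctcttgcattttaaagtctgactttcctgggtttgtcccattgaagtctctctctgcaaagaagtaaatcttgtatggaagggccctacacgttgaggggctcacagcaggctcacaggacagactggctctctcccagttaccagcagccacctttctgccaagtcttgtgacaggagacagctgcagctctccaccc
The liver forms had more CG steps, 14 in Cox7a2 and 11 in Cox8a, than the muscle forms, with 4 in Cox7a1 and 1 in Cox8b. The capitals are the CCAAT box read on the opposite strand, found 2 times before Cox7a1 and 1 time before Cox8a. Cox8a also holds a GABPA match that reaches past the start, beyond the bases printed, and is left in lower case. A match is a description of letters and not a bound site.

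Complex V, the ATP synthase, had 17 genes, of which 0 passed the threshold. Estimates ran from -0.02 to 0.18, 14 above 0 and 3 below, beside 5925 above and 5655 below over all genes. These signs are likewise not independent of each other. The median of complex V was 0.03. That median was -0.01 under total count scaling, where the median of all genes also moved, from 0.00 to -0.03. It was also -0.01 without L-RalyKO 2, so its sign rests on the scaling and on that library. Atp5b, the catalytic beta subunit (chr10:127520329-127527447, mm9, plus strand), read 1167, 1195 and 1125 in L-RalyKO libraries and 1124, 1125 and 1137 in controls. Atp5a1, the alpha subunit, read 1005, 1069 and 1013 against 1054, 1053 and 1019, the lowest estimate of the complex at -0.02. The catalytic head genes thus overlapped between groups.

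The c-ring that turns in the membrane is made from 3 genes encoding the same mature protein. Atp5g3 gave 59.8% of their level per kilobase, Atp5g1 21.2% and Atp5g2 19.1%. Atp5g3 read 285, 300 and 285 against 304, 301 and 277, Atp5g1 read 99.1, 106 and 94.6 against 97.8, 98.8 and 100, and Atp5g2 read 86.4, 88.3 and 82.1 against 84.6, 81.7 and 79.8. All 3 overlapped between groups. Atp5g2 is uncertain, because 100% of its 50-base words occur elsewhere in the genome, for example in pseudogenes. For Atp5g1 it was 28.1% of the words, so the shares of all 3 genes are uncertain. In all, 13 members, Cox7a2l (53%) among them, shared over 20% of their words with other places. Their median estimate was 0.01 beside -0.02 for the other 65.

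Atp5sl had the highest estimate of any member. The rule takes it in by name, and it is now known as Dmac2, a factor for assembling complex I. It lies at chr7:26404433-26410570 (mm9, plus strand) and read 40.9, 41.5 and 34.7 in L-RalyKO libraries and 32.7, 34.8 and 35.5 in controls. L-RalyKO 3 lay among the controls, and the other L-RalyKO libraries above them. The log2 fold change was 0.18 ± 0.08 (SE), the 95% interval on that scale 0.01 to 0.35, and the adjusted p 0.208 by limma. Without L-RalyKO 3 the estimate was 0.26 and the adjusted p 0.0630, and over the alternatives the adjusted p ranged from 0.0630 to 0.446. With Atp5sl and the related Atp5s (Dmac2l) set aside, the 15 ATP synthase subunits had a median of 0.02. None of the 15 had an unadjusted p under 0.05 by limma, beside 22.7% of all genes.

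Levels per kilobase of transcript differed far more between members than between groups. Over the tested genes alone, complex I had a median of 75.9 per kilobase, beside 177 for complex II, 167 for complex III, 257 for complex IV and 175 for complex V. With the longest instead of the median coding transcript the medians were 59.6, 149, 146, 197 and 139, so among tested genes complex I stayed lowest and complex IV, without its 7 sparse genes, highest, while the order of II, III and V changed. The most abundant member was Atp5b at 607 ± 18.2 (SD, n = 3) in L-RalyKO and 589 ± 3.69 (SD, n = 3) in control liver. Next came Atp5g3 at 406, Atp5a1 at 403, Cox4i1 at 391 and Ndufa4 at 385, which are close to each other. Ndufa4 was the top gene of the complex I set, Uqcrq of complex III at 353 and Sdha of complex II at 213. At the low end stood Atp5s at 2.45 and Ndufa4l2 at 1.25.

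**Figure D3:**
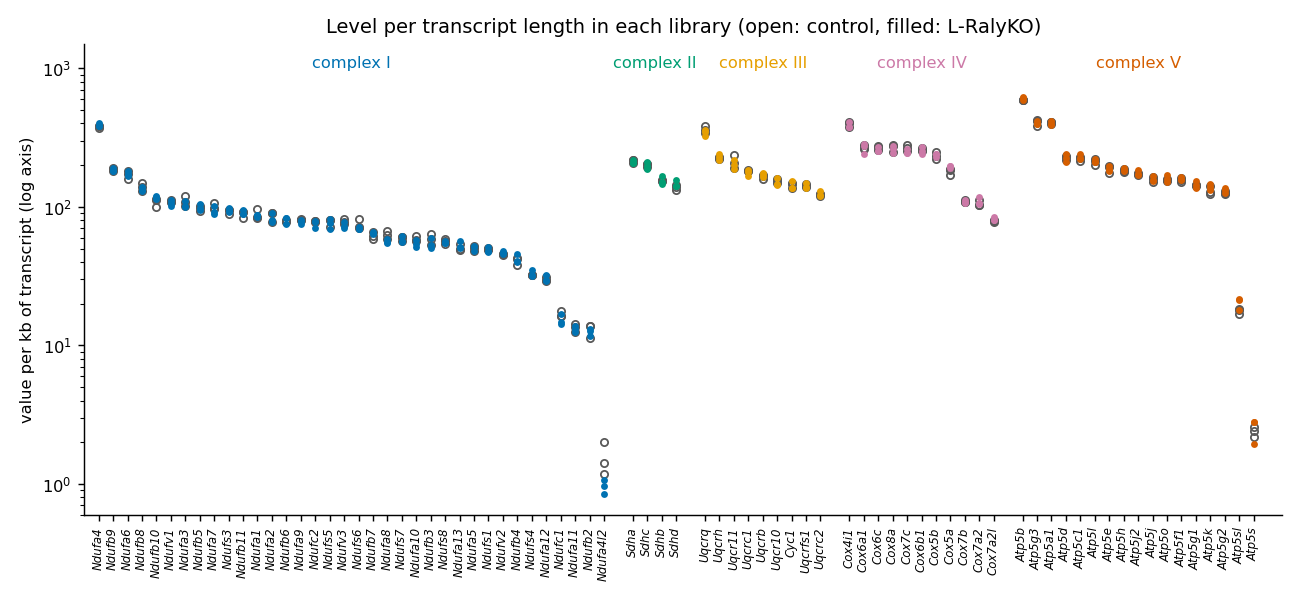
Value per kilobase of coding transcript (log axis) of the tested members (1 not shown) in each library, ordered within each complex by mean level, with open circles for control and filled circles for L-RalyKO. Open and filled circles fall together for nearly all members, from Atp5b near 598 down to Ndufa4l2 near 1.25. In Ndufa4l2, which reached the minimum mean value only through the controls, the filled circles all lie below the open ones.

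Members moved together from library to library within a group. L-RalyKO 2 was the highest of its group in 70 of 78 members and the lowest in 1, and over all genes it was highest in 36.4%. L-RalyKO 3 was lowest in 47 of 78, beside 37.9% of all genes. Among controls, control 1 was highest in 46 of 78, beside 32.8% of all genes. Control 3 was lowest in 54 of 78, beside 33.5% of all genes. The mean deviation of the members from their group was 0.07 on the log2 scale for L-RalyKO 2 and -0.04 for L-RalyKO 3, and 0.04 for control 1 and -0.04 for control 3. These shared shifts are larger than the median difference of -0.01 between the groups, and that median was -0.04 without L-RalyKO 2 and 0.02 without L-RalyKO 3.

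Markers of other liver cells also differed between the libraries. L-RalyKO 2 was lowest of its group in 6 of 6 Kupffer cell and macrophage markers, whose summed level was 134 beside 172 and 162, and in 6 of 6 endothelial markers, at 154 beside 194 and 168. Control 1 was lowest in 6 of 6 Kupffer cell and macrophage markers, at 128 beside 190 and 151. For endothelial markers the controls were close, at 176, 176 and 185. Red-cell markers summed to 1258, 641 and 901 in L-RalyKO and 1101, 1101 and 665 in control libraries. L-RalyKO 3 was highest in 6 of 6 stellate cell markers, at 245 beside 190 and 198, while controls were at 222, 204 and 204. None of these marker genes passed the threshold between groups, and their part in the members' shared shifts was not tested.

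**Figure D4:**
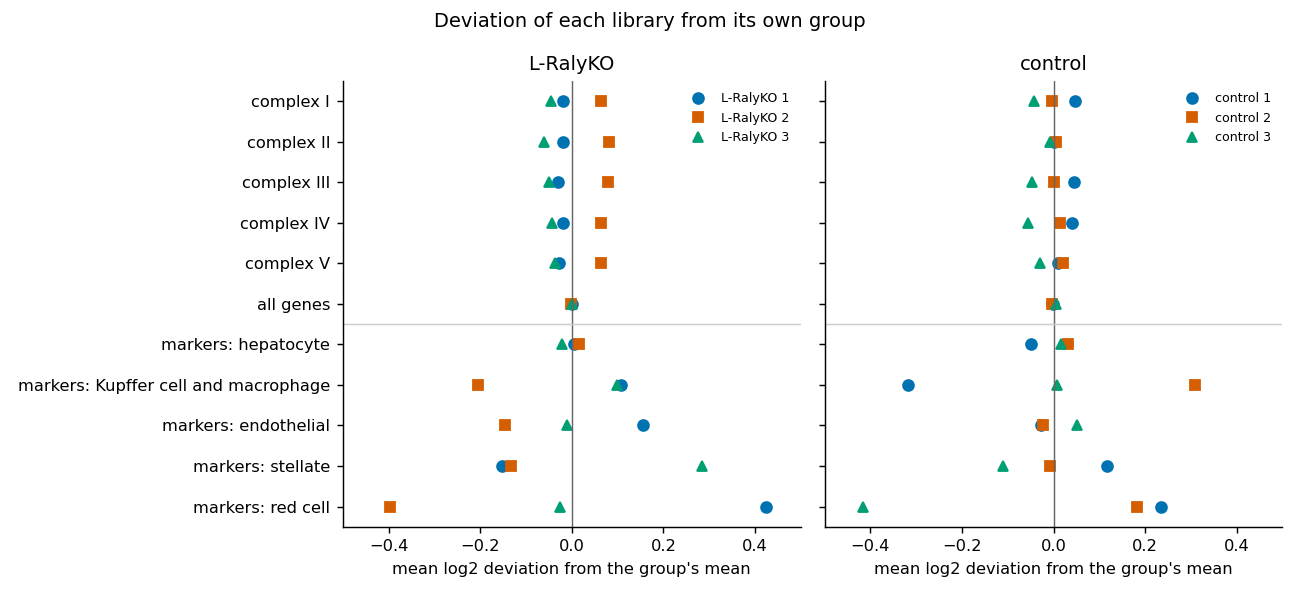
Mean log2 deviation of each library from its own group's mean (horizontal axis) for each complex, for all genes and for marker lists of liver cell types, with L-RalyKO on the left and control on the right. L-RalyKO 2 sits to the right for each complex and to the left for Kupffer cell, endothelial, stellate and red-cell markers.

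Outside the 85 members, 3 of 108 tested genes in 6 lists of the same pathway passed the adjusted threshold, beside the 6.55% of all genes. None of 14 complex I assembly factors did so by limma, edgeR or voom, with 2 at an unadjusted p under 0.05 by limma (beside 22.7% of all genes), while DESeq2 called 1. Of 28 assembly factors of complexes II to V, 1 passed. It was Sco2, a copper chaperone for cytochrome c oxidase, at 27.5, 25.4 and 25.3 in L-RalyKO libraries and 44.5, 34.6 and 34.8 in controls. Every L-RalyKO value was below every control, and Sco2 fell by 0.52 ± 0.10 (SE) on the log2 scale with an adjusted p of 0.0177 by limma. The adjusted p was 0.0598 without L-RalyKO 2 and 0.0563 without L-RalyKO 3, and Sco2 overlaps Ncaph2 in the annotation.

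The lists of carriers and coenzyme Q genes held 1 more. None of 11 other carriers, which include cytochrome c and the adenine nucleotide exchangers, passed by limma, edgeR, voom or DESeq2. By limma 1 had an unadjusted p under 0.05, beside 22.7% of all genes. Of 13 coenzyme Q synthesis genes Adck3, a kinase-like protein needed for that synthesis and now called Coq8a, fell from 218, 214 and 205 in controls to 172, 180 and 143. Its log2 fold change was -0.36 ± 0.08 (SE) with an adjusted p of 0.0360 by limma, and the groups did not overlap. Adck3 overlaps Cdc42bpa on the other strand in the annotation. DESeq2 called 2 genes of this list, as did limma with upper-quartile scaling or without control 3. The call of Adck3 was lost without L-RalyKO 1 (0.0745), control 1 (0.113) or control 2 (0.0870). Coq10b, a coenzyme Q binding protein, missed the threshold at 74.3, 72.9 and 76.4 against 60.2, 65.0 and 67.1, with an estimate of 0.22 and an adjusted p of 0.0523 by limma.

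Among 25 regulators of mitochondrial genes, 1 rose. Ppargc1b, a coactivator of respiratory genes, read 13.4, 12.5 and 12.9 in L-RalyKO libraries and 8.20, 10.1 and 7.14 in controls, without overlap. Its log2 fold change was 0.57 ± 0.11 (SE) with an adjusted p of 0.0204 by limma, and 1 other annotated gene overlaps it on the other strand. Leaving out L-RalyKO 1, 2 or 3 or control 1 gave adjusted p values of 0.0762, 0.0535, 0.0590 and 0.0708. None of 17 citric acid cycle genes passed by limma, edgeR or voom, 1 did by DESeq2, and 5 had an unadjusted p under 0.05 by limma, 2 with higher and 3 with lower estimates, where 22.7% of all genes did. The 13 mitochondrially encoded subunits were not analysed here.

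**Figure D5:**
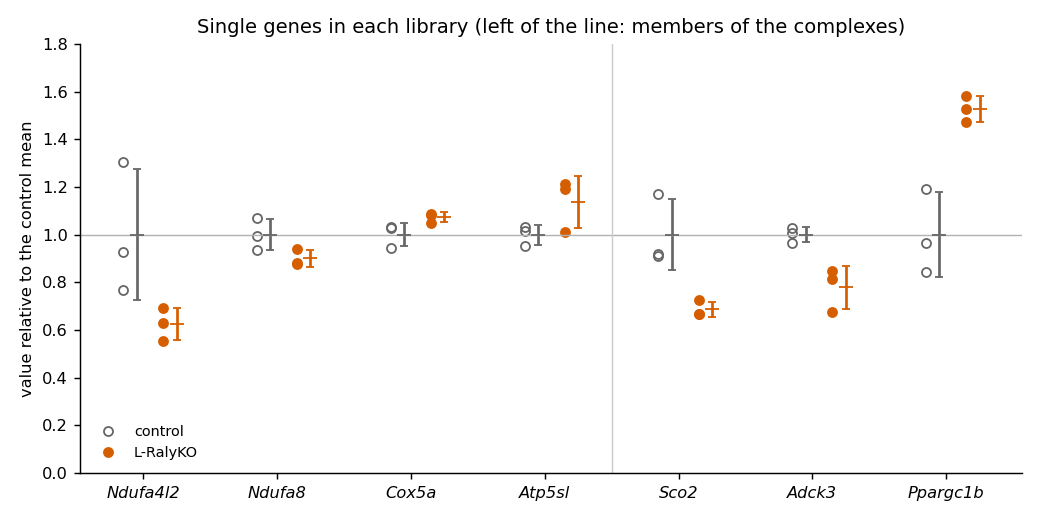
Value relative to the control mean (vertical axis) in each library for 4 members and 3 other genes of the pathway, open circles for control and filled for L-RalyKO, with the mean and SD of the 3 libraries beside them. The filled circles lie apart from the open ones in Ndufa4l2, Cox5a, Sco2, Adck3 and Ppargc1b, and overlap them in Ndufa8 and Atp5sl. Groups did not overlap in 28.1% of all genes. Sco2, Adck3 and Ppargc1b are shown because they passed the threshold in these same values. Ndufa4l2 reached the minimum mean value only through the controls.

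The promoters of the members were read for motifs of factors tied to respiratory genes. RefSeq (GRCm38.p6) gave 75 windows of 300 bases, from 250 before to 50 after the start, for 69 of the 85 members, and both strands were searched for exact letters; no string contains another. The NFY box CCAAT, which belongs to a factor that the study ties to RALY, was in 42.7% of the members' windows beside 37.4% of 32851 windows of all genes. The palindromic NRF1 motif, searched as 1 string of 10 letters, was in 6.67% beside 0.971%, in Atp5k, Atp5g2, Cox6a1, Ndufa11 and Uqcrc1. The YY1 string AAGATGGCG was in 12% beside 1.40%, in 8 genes that include Ndufs4, Ndufs6, Ndufs7 and Atp5sl. The GABPA string CCGGAAGT was in 6.67% beside 3.89%, and the ERR string TCAAGGTCA in 2.67% beside 0.423%. The members' windows also held more CG steps, with a median of 19 beside 7. These shares describe the letters in the windows of tested and untested members alike.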

How the data were processed

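Liver RNA-seq of 3 L-RalyKO and 3 control libraries was used; the ATAC-seq and ChIP-seq data were not analysed here. The methods state a stranded kit, paired-end reads, TopHat on mm9 and Cufflinks v2.0.2, but not how the deposited values were made. The table that the authors deposited holds a normalized signal, in which each value is a whole number of reads (100% within 0.01 reads) divided by a library size scaled by factors equal to the TMM factors that edgeR gave from the recovered reads. The design had allowed for raw counts; as the values are normalized, log2(value + 1) was compared by limma 3.58.1 (R 4.3.3, trend by intensity). Genes whose mean value was 1 or more entered, 11580 in all, and p values were adjusted over these by Benjamini-Hochberg (threshold 0.05). The pseudocount of 1 makes changes of low genes look smaller than they are. Intervals are at the 95% level, and counts of 0 allow 3 reads, for counting error only. Precision is limited by the 3 libraries per group and by depth.

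Members and lists were chosen with earlier results of these data known. Genes named with values were Raly, the extremes and the most abundant gene of each complex, isoform sets, core complex I and Sdh genes, and list genes past the threshold; Ndufa8, Cyc1, Uqcrfs1, Atp5s and Coq10b were named after their values were seen. Positions, median coding transcript lengths and 50-base words shared with other places came from GENCODE vM1 on NCBIM37 (mm9). Alternatives were edgeR 4.0.16, DESeq2 1.42.0 and limma voom on recovered reads, other scalings, filters and pseudocounts (0.1), a replicate block and leaving out each library. Values of some genes are not reported here.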

Additional observations from a re-analysis of the deposited data

How the results depend on the processing

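The count of members past the adjusted threshold was 0 under all 16 alternatives, and the lowest adjusted p of any member was 0.0630, for Atp5sl without L-RalyKO 3. The count over all genes was 758, and it was 484 when all genes with at least 1 read were tested, 536 without an intensity trend, 1084 with DESeq2, and 332 to 813 when 1 library was left out. Under total count scaling 40.9% of calls were higher (324 higher, 469 lower), beside 51.3% as deposited, and the median of all genes moved from 0.00 to -0.03. Ndufa4l2 was -0.69 with edgeR and DESeq2, -0.66 with voom, -0.60 with a pseudocount of 0.1 and -0.23 without control 3. The gene was not tested with a minimum mean value of 5, and its call did not change elsewhere. Adck3 was past the threshold under 11 of 16 alternatives, as was Ppargc1b, and Sco2 under 14; without a trend the adjusted p of Adck3 was 0.0729, and with all genes tested it was 0.0673 for Adck3 and 0.0515 for Ppargc1b. The cause of these shifts was not tested. The longest-transcript lengths were an alternative chosen after seeing the data.

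The labels do not state whether replicate numbers pair the libraries. Same-numbered libraries had correlations of deviations of 0.0664, -0.0238 and 0.0196. Deviations from the mean of so few libraries are tied to each other, so these values cannot decide it. With the replicate number as a block, 704 genes and 0 members were past the threshold, and 1 member had an unadjusted p under 0.05. L-RalyKO 1 and L-RalyKO 3 deviated most like the control of their own number, and L-RalyKO 2 most like control 3.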
